A study of Arabidopsis thaliana with 14 samples.

Results

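The rrm1 mutant of Arabidopsis thaliana was set against the Col-0 wild type of the same deposited table, over all genes in the table. The difference is between 4 of the 14 RNA-seq libraries of the series, rrm1 replicates 1 and 2 against Col-0 replicates 3 and 4, and its spread was estimated from all 8 libraries of the table. The labels give rrm1 as homozygous, with no allele, locus or number of lines. A further pair of groups in the table carries the same mutation in another background, pdp1/2/3;rrm1 (4 genes mutated, all homozygous) against pdp1/2/3 (3 genes mutated), with 2 libraries each. All seedlings were 11 days old and grown on MS plates with 16 h of light at 23 °C and 8 h of dark at 21 °C, and RNA came from 1 g of whole seedlings. The comparison asks which transcripts depend on RRM1, in plants that are otherwise wild type. A second pair of Col-0 libraries stands in the other table, with the fve and suvh2/9 mutants. Their levels were normalised apart from these and are given only as values.

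The series is about FVE, a protein of the autonomous flowering pathway, which holds down FLC, a MADS-box repressor of flowering. FLC and its relatives MAF1 to MAF5 delay the switch to flowering by repressing FT and SOC1. The PDP proteins, which carry a PWWP domain, have been described as partners of FVE at FLC. The sources used here give no locus for RRM1 or for PDP1 to PDP3, so the transcripts of the mutated genes could not be checked in any library.

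The deposited values are counts adjusted by the authors to a common library size, and levels are given here as adjusted counts per 1e+06 of the table's mean library total (CPM). Totals were 18609045 and 19086052 adjusted counts in rrm1 and 19131806 and 19497293 in Col-0, so 1 count was 0.0520 CPM. A gene at 0 in a library could still have been at up to 0.156 CPM, the level of 3 counts, which covers counting error only. Across genes the replicates correlated at r = 0.995 in rrm1, 0.996 in Col-0, 0.994 in pdp1/2/3;rrm1 and 0.994 in pdp1/2/3, and genes are not independent. Spread between replicates was unequal. Its mean chi-square per gene, larger for a larger spread, was 3.83 in rrm1, 2.71 in Col-0, 5.35 in pdp1/2/3;rrm1 and 6.88 in pdp1/2/3. For the label of whole seedlings, 29 of 29 listed photosynthesis genes and 17 of 17 listed root genes passed the filter on low values. In RNA from whole seedlings, a change in the share of a cell type and a change of RNA per cell cannot be told apart. The labels do not say whether replicates were separate cultures, so the p-values rest on the spread among these libraries, which may be technical. They also do not say which groups were grown or harvested together, and in this table Col-0 alone is numbered 3 and 4. The sources used here do not say whether counting used strand, and genes on the opposite strand overlap WRKY40, BT5, RLP41, CML24, CML12, IAA3, IAA5, EXPA7, RS40, FLC, SDC, FWA, SUVH2, SARD1, NPR1, OLEO1, PYK10, CBF3, AT4G32820 and AT1G64795. Reads of such pairs may be mixed.

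Of 19241 genes tested with limma, 775 were called at an adjusted p below 0.05, which is 4.03% of those tested. The calls were 527 higher (2.74%) and 248 lower (1.29%) in rrm1 than in Col-0. The median log2 difference was 0.63 among the higher genes and -0.53 among the lower ones, so most changes were small. A difference of at least 1 on the log2 scale of the level plus 1 was found for 138 calls, 98 higher and 40 lower. In all 775 the rrm1 and Col-0 libraries did not overlap, while over all tested genes both rrm1 libraries lay above both Col-0 libraries for 27.9% and below them for 25.3%. Nearly all calls, 770, were protein-coding genes, and 3 were long non-coding RNAs, out of 19002 and 127 tested. They lay on all 5 chromosomes, with 189, 120, 147, 143 and 176 on chromosomes 1 to 5. Neighbouring genes called in the same direction made up 42 of 19236 adjacent tested pairs (0.218%), among them MAF4 with MAF5, BGLU18 with TSA1, XTH24 with XTH18, and PRXCA with PRXCB. Counts of calls leaned on single libraries: 204 genes were called without Col-0 replicate 3, 236 without Col-0 replicate 4, 313 without rrm1 replicate 1 and 334 without rrm1 replicate 2. They also depended on the estimate of the spread: 419 genes were called with no mean-variance trend and 270 with no filter on low values. When only the 4 libraries compared were fitted 1746 were called, and 1234 and 1222 when pdp1/2/3 replicate 1 or 2 was left out.

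**Figure D1:**
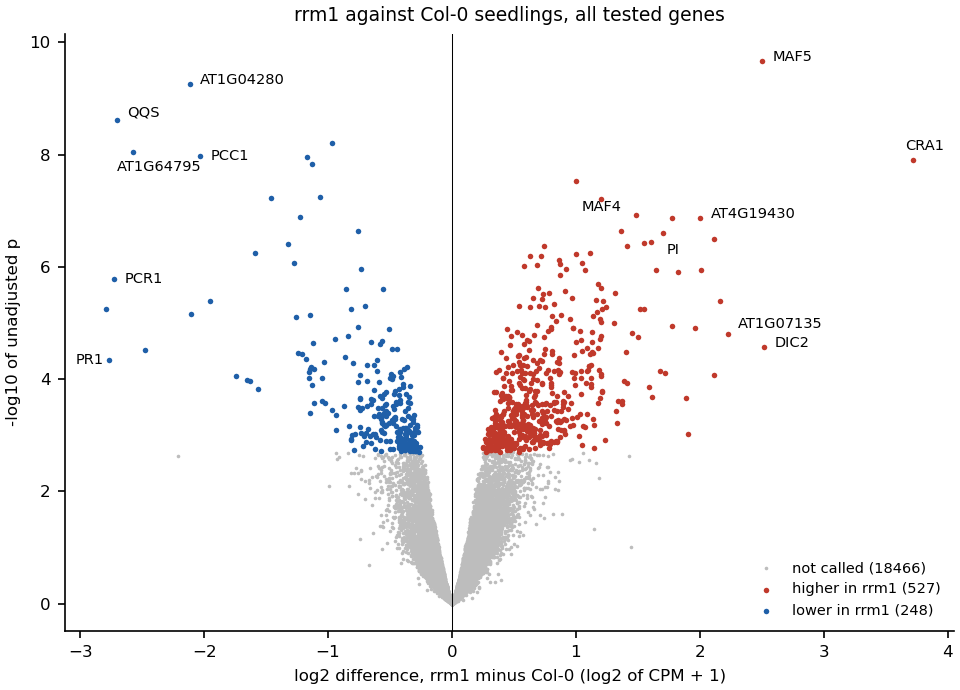
Each point is 1 of the 19241 tested genes, with the log2 difference of the level plus 1 (rrm1 minus Col-0) on the x axis and -log10 of the unadjusted limma p on the y axis. Red points are the 527 genes called higher in rrm1, blue points the 248 called lower, and grey points were not called. CRA1 stands farthest right at 3.72, and PR2, PR1, PCR1 and QQS farthest left.

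The same mutation was also set against pdp1/2/3, in 4 libraries whose levels do not enter the difference from Col-0. Both differences come from 1 fit with a shared estimate of the spread. The difference between pdp1/2/3;rrm1 and pdp1/2/3 was called for 570 genes (2.96% of those tested), 276 higher (1.43%) and 294 lower (1.53%). Of the 775 genes called in rrm1 against Col-0, 183 were called in the same direction there, 126 higher and 57 lower. That is 24% of the calls against Col-0 and 32% of the calls against pdp1/2/3. Only 4 genes were called in opposite directions. With each pair of groups fitted alone, 1746 genes were called against Col-0, 369 against pdp1/2/3 and 185 the same way in both. The sign was the same for 620 of the 775 (80.0%), and for 58.1% of all tested genes. In the second background the median log2 difference of the genes higher in rrm1 was 0.27, and of the lower ones -0.17. These genes were chosen by their calls against Col-0, which favours large differences in that comparison. The medians therefore cannot say whether sizes differed between the backgrounds.

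**Figure D2:**
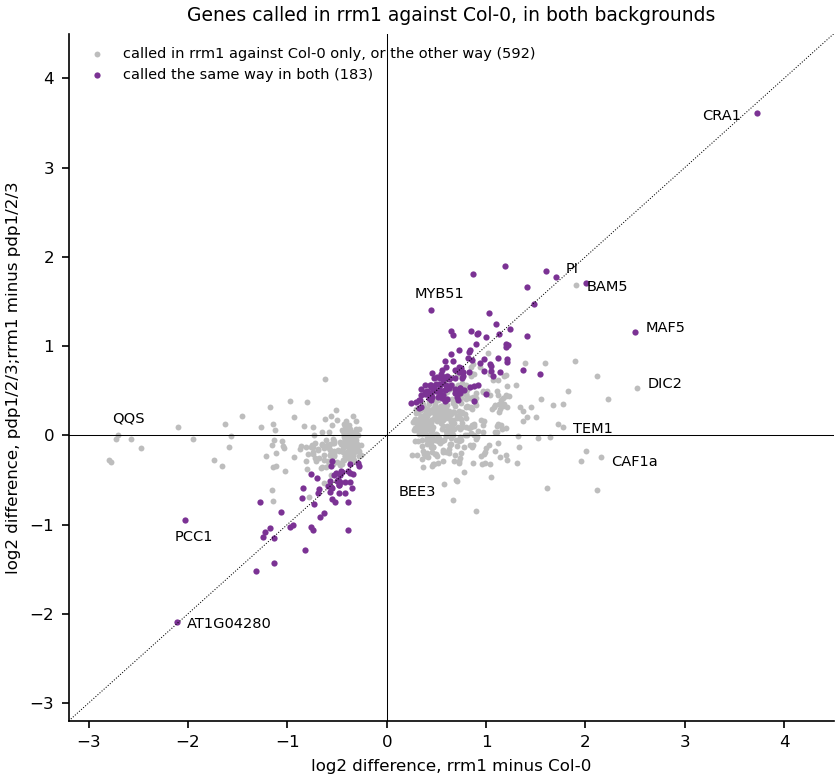
Each point is 1 of the 775 genes called in rrm1 against Col-0, with that log2 difference on the x axis and the log2 difference of pdp1/2/3;rrm1 minus pdp1/2/3 on the y axis; the dotted line marks equal differences. The 183 genes called the same way in both (purple) have the same sign on both axes, with CRA1 at the upper right and AT1G04280 at the lower left near that line, and MAF5, PCC1 and MYB51 off it. The other 592 (grey) include many near 0 on the y axis, such as QQS, TEM1 and CAF1a.

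For many calls the Col-0 pair stood apart from all mutants of the table, pdp1/2/3 included. Both Col-0 libraries lay below all 6 mutant libraries for 315 of the 527 genes higher in rrm1 (59.8%). Over all 5364 tested genes with both rrm1 libraries above both Col-0 libraries, called or not, the share was 36.1%. They lay above all 6 for 162 of the 248 lower genes (65.3%), and for 46.2% of all 4873 tested genes with both rrm1 libraries below both Col-0 libraries. The share was 31.7% among the 126 higher genes shared with the second background, and 68.6% among the other 401. Among the lower genes it was 33.3% of the 57 shared and 74.9% of the other 191. Calls against Col-0 were chosen for a large gap from the same Col-0 libraries. That choice can raise their shares above those of all genes without overlap. A call in the second background sets pdp1/2/3;rrm1 apart from pdp1/2/3, so the choice of shared genes fixes part of the contrast between shared and other genes. A difference between Col-0 and the rrm1 mutation and a difference between Col-0 and every mutant library of this table cannot be told apart for such genes from the Col-0 comparison alone. Values in the second background are therefore given below for many genes and lists, but not for all. Counts of calls within lists are to be read against the shares over all tested genes. These were 2.74% higher and 1.29% lower against Col-0, and 1.43% and 1.53% in the second background.

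The largest difference was that of CRA1 (AT5G44120, chromosome 5, 17756238 to 17758336, minus strand), which encodes cruciferin A, a 12S globulin that seeds store. CRA1 stood at 11.1 and 22.9 CPM in the rrm1 libraries, against 0.308 and 0.265 CPM in Col-0. Both rrm1 libraries were far above Col-0, with a ratio of means of 59.3. The log2 difference was 3.72 (SE 0.271, adjusted p = 3.05e-05). In the second background it was at 16.9 and 10.6 CPM in pdp1/2/3;rrm1, against 0.262 and 0.103 CPM in pdp1/2/3, a log2 difference of 3.61 (adjusted p = 6.04e-05). The difference between the backgrounds was not called (adjusted p = 0.942 for the interaction).

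Other seed genes were far lower. Of 17 listed genes of seed storage and maturation, 2 passed the filter on low values and only CRA1 was called. CRC, which encodes another cruciferin, was at 0 and 6.43 CPM in rrm1 and 0 in both Col-0 libraries (log2 1.45, adjusted p = 0.361), so a single library carried its level. In pdp1/2/3;rrm1 CRC was also high in 1 library of 2, at 4.56 CPM. CRB, the third cruciferin, did not pass the filter, with 0 and 0.103 CPM in rrm1 and 0 in Col-0. OLEO1, an oil-body protein, was at 0.0452 and 0.720 CPM in rrm1 and 0 in Col-0, and was not tested. ATS3, an embryo-specific gene outside the list, was called higher at 1.15 and 1.13 CPM against 0.205 and 0.212 CPM in Col-0 (log2 0.82, adjusted p = 0.0156). Its call was lost without any 1 of the 4 libraries (adjusted p of 0.086 to 0.103). ATS3 was higher in the second background too (log2 0.86, adjusted p = 0.0149).

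The promoter of CRA1 is shown because it has the largest difference and carries the letters known from seed storage promoters. RY elements, CATGCA on either strand, are bound by the B3-domain regulators of seed maturation. The 250 bases before the CRA1 start (TAIR10.1, RefSeq, minus strand) hold 2 of them, in capitals, which begin 181 and 164 bases before the start.
CRA1, chr5:17758337-17758586: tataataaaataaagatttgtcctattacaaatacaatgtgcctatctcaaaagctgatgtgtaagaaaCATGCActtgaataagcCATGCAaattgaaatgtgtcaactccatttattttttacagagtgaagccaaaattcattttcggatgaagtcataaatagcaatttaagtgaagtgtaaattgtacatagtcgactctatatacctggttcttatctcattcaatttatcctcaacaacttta
At least 1 CATGCA was found in 10.2% of the windows of genes called higher, 10.5% of those called lower and 7.6% of all 19240 tested genes with such a window.

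Among the flowering repressors of the FLC clade, MAF5 and MAF4 rose and FLC was not called. MAF5 (AT5G65080, chromosome 5, 25997504 to 26002619) was at 9.20 and 7.07 CPM in rrm1, against 0.564 and 0.635 CPM in Col-0 (log2 2.50, SE 0.127, adjusted p = 4.1e-06). In pdp1/2/3;rrm1 it was at 18 and 19.0 CPM, against 7.81 and 7.82 CPM in pdp1/2/3 (log2 1.15, adjusted p = 0.0007). MAF5 was called higher in both comparisons, and pdp1/2/3 without the rrm1 mutation also stood above Col-0. The log2 difference was larger against Col-0 (interaction adjusted p = 0.018), but this was not called once Col-0 replicate 3 was left out (0.0786). Its neighbour MAF4 (AT5G65070, 25992193 to 25996202) was at 3.55 and 3.28 CPM in rrm1 and 0.564 and 0.583 CPM in Col-0 (log2 1.49, adjusted p = 0.00015). MAF4 was at 7.16 and 7.30 CPM in pdp1/2/3;rrm1 and 2.15 and 1.81 CPM in pdp1/2/3 (log2 1.47, adjusted p = 0.00019). FLC was at 0.550 and 0.410 CPM in rrm1 and 0.411 and 0.318 CPM in Col-0 (log2 0.12, adjusted p = 0.793). In the second background FLC rose, at 8.81 and 8.86 CPM in pdp1/2/3;rrm1 and 2.99 and 5.23 CPM in pdp1/2/3 (log2 0.98, adjusted p = 0.0187), but the difference between backgrounds was not called (adjusted p = 0.221). MAF1, MAF2 and MAF3 were not called against Col-0, with log2 differences of -0.09, 0.03 and 0.13. MAF2 to MAF5 lie in tandem and are close copies, so 50-base reads could be split among them.

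The promoters of MAF4 and MAF5 are shown because these tandem genes moved together. In capitals is the longest run that both 250-base windows hold (TAIR10.1, RefSeq, plus strand), of 20 letters. It begins 143 bases before the MAF4 start and 112 bases before the MAF5 start.
MAF4, chr5:25991943-25992192: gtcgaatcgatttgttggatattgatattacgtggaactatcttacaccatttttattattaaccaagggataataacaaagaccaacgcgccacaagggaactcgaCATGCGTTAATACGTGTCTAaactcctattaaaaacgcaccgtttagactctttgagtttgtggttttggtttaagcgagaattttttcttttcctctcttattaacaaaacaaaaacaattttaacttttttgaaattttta
MAF5, chr5:25997254-25997503: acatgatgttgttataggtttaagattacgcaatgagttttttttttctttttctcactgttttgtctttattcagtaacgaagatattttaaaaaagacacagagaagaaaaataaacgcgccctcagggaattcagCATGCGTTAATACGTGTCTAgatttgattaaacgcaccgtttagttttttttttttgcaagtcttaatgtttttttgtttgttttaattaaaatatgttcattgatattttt
Searched on both strands, this run was in the windows of 2 of the 6 genes of the FLC clade, MAF4 and MAF5, and in 2 of 37897 annotated genes. The run was chosen because MAF4 and MAF5 share it, so its presence in both was fixed in advance. A match of letters does not say what binds there.

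Of 14 floral promoters, 7 were tested and SOC1 alone was called. SOC1, which integrates flowering signals, was at 42.5 and 46.4 CPM in rrm1 and 64.0 and 62.4 CPM in Col-0 (log2 -0.50, adjusted p = 0.0084). In pdp1/2/3;rrm1 it was at 25.9 and 23.5 CPM, against 38.1 and 33.0 CPM in pdp1/2/3, with nearly the same log2 difference of -0.51 (adjusted p = 0.0106). The call against Col-0 was lost without Col-0 replicate 3 (adjusted p = 0.0877), Col-0 replicate 4 (0.0644) or rrm1 replicate 1 (0.0834). In the Col-0 libraries of the other table SOC1 was at 35.3 and 42.2 CPM. FT, which moves from leaf to shoot tip to start flowering, did not pass the filter, at 0.200 and 0.154 CPM in rrm1 and 0.154 and 0.264 CPM in Col-0. SVP, a repressor that acts with FLC, was at 104 and 110 CPM in rrm1 and 106 and 111 CPM in Col-0 and was not called.

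Among floral organ genes, PI and SEP3 were called higher. PI (AT5G20240), a MADS-box gene for petals and stamens, was at 5.15 and 3.53 CPM in rrm1 and 0.667 and 0.583 CPM in Col-0 (log2 1.70, adjusted p = 0.00024). It was at 5.07 and 4.74 CPM in pdp1/2/3;rrm1 and 0.734 and 0.725 CPM in pdp1/2/3 (log2 1.77, adjusted p = 0.000207), so the level was alike in both mutants that carry rrm1 and low in both groups without it. SEP3, which joins floral organ proteins into complexes, was at 12.8 and 9.99 CPM in rrm1 and 5.03 and 3.13 CPM in Col-0 (log2 1.31, adjusted p = 0.00229). Its difference in the second background was not called (log2 0.56, adjusted p = 0.134). Only 3 of 12 listed homeotic genes passed the filter. The third was not called and had a negative log2 difference of -0.32 against Col-0. AP3, the partner of PI, was below it at 0.446 and 0.770 CPM in rrm1 and 0.308 and 0.160 CPM in Col-0, and AP1 and AG were below it as well.

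**Figure D3:**
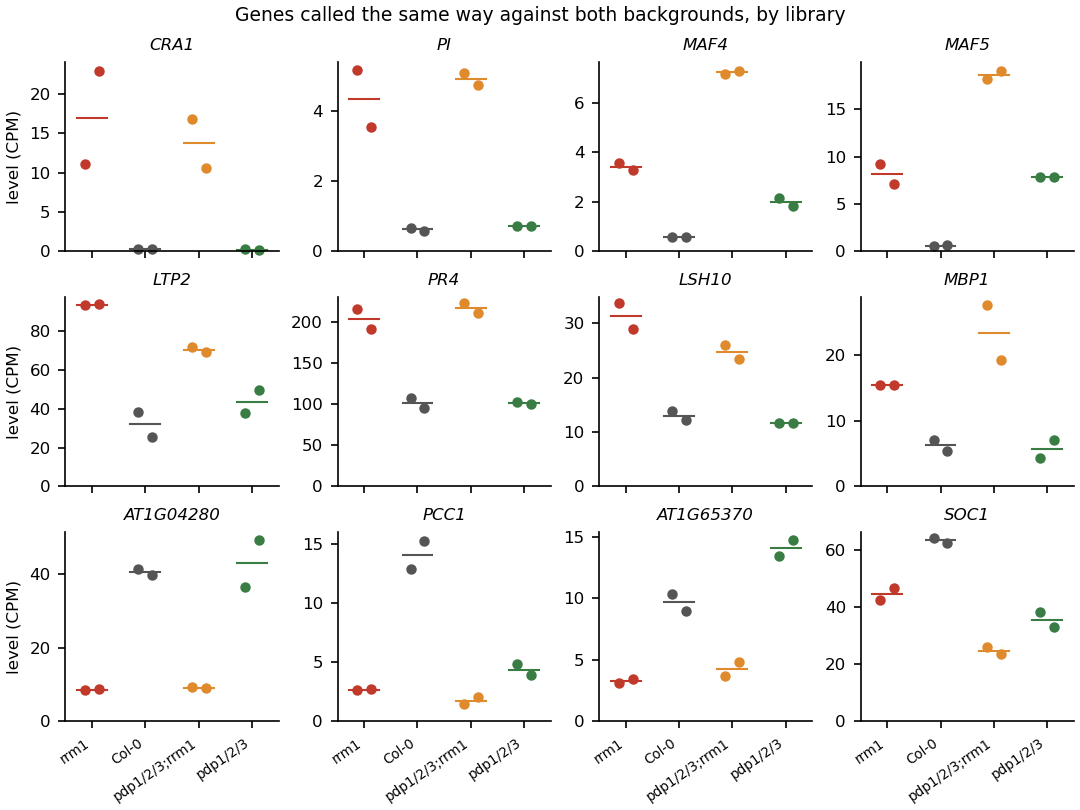
Levels (CPM, y axis from 0, scale set per gene) of 12 genes called the same way against Col-0 and against pdp1/2/3. Points are libraries and lines group means (n = 2), in the order rrm1, Col-0, pdp1/2/3;rrm1 and pdp1/2/3. The first 8 genes are higher, and AT1G04280, PCC1, AT1G65370 and SOC1 lower, in each group with rrm1 than in its counterpart.

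Other genes, all below 3 CPM in Col-0, rose in both backgrounds. They are given here after their values were seen, as the genes with the largest differences called in both. OPT9 (AT5G53510), an oligopeptide transporter, was at 1.95 and 2.15 CPM in rrm1 and 0 in both Col-0 libraries, at least 13.1-fold higher on means (floor of 3 counts per library). In pdp1/2/3;rrm1 it was at 2.46 and 2.92 CPM, against 0.0523 and 0 CPM in pdp1/2/3. AT4G19430, which has no described product, was at 3.09 and 3.33 CPM in rrm1 and 0.103 and 0 CPM in Col-0 (log2 2.00, adjusted p = 0.00015), and its log2 difference in the second background was 1.71 (adjusted p = 0.000579). AT3G33528 was at 1.35 and 1.39 CPM in rrm1 and 0 in Col-0, at least 8.75-fold higher, with a log2 difference of 1.19 in the second background (adjusted p = 0.00243). EDA12, named for an arrested embryo sac, was at 6.29 and 6.36 CPM in rrm1 and 2.05 and 1.49 CPM in Col-0 (log2 1.41; 1.66 in the second background). BGAL7, a beta-galactosidase, was at 3.35 and 3.18 CPM in rrm1 and 0.821 and 0.847 CPM in Col-0 (log2 1.22; 1.02 in the second background). The calls of OPT9, AT4G19430, AT3G33528, EDA12 and BGAL7 held without any 1 library. All but EDA12 were below 1 CPM in both Col-0 libraries, so they passed the filter on low values through groups where they were higher. For OPT9 these were only libraries that carry rrm1.

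PR4, LTP2, LSH10 and SUC5 also rose in both backgrounds. PR4, a chitin-binding defence protein, was at 216 and 192 CPM in rrm1 and 108 and 95.4 CPM in Col-0, a ratio of means of 2.01 (log2 1.00, adjusted p = 5.65e-05). It was at 224 and 212 CPM in pdp1/2/3;rrm1 and 103 and 99.9 CPM in pdp1/2/3 (log2 1.1, adjusted p = 5.98e-05). LTP2, a lipid transfer protein of the epidermis, was at 93.5 and 94.1 CPM in rrm1 and 38.5 and 25.7 CPM in Col-0 (log2 1.55; 0.69 in the second background, adjusted p = 0.0344). LSH10, of the ALOG family of growth regulators, was at 33.7 and 28.9 CPM in rrm1 and 13.8 and 12.2 CPM in Col-0 (log2 1.2; 1.02 in the second background). SUC5, a sucrose transporter known from the endosperm, was at 3.34 and 3.74 CPM in rrm1 and 1.39 and 1.06 CPM in Col-0 (log2 1.03; 1.37 in the second background, adjusted p = 0.000583). In each of these 4 genes both mutants that carry rrm1 stood above both groups that do not.

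PBP1, BGLU18, MBP1 and JAL23 were called higher against Col-0, and were singled out after their values were seen. The bodies of the endoplasmic reticulum (ER bodies) hold beta-glucosidases for defence. PBP1, a lectin that binds the ER body enzyme PYK10, was at 420 and 331 CPM in rrm1 and 246 and 244 CPM in Col-0 (log2 0.61, adjusted p = 0.00665; 0.41 in the second background, adjusted p = 0.0492). BGLU18, an ER body beta-glucosidase that frees abscisic acid from its sugar conjugate, was at 297 and 260 CPM in rrm1 and 179 and 163 CPM in Col-0 (log2 0.70, adjusted p = 0.00708). MBP1, a myrosinase-binding protein, rose by 1.19 against Col-0 and by 1.89 in the second background. JAL23, a jacalin-type lectin, rose by 1.14 and 0.71. PYK10 itself was at 1998 and 1657 CPM in rrm1 and 1572 and 1539 CPM in Col-0 and was not called (adjusted p = 0.238). By product name, 6 of 20 tested mannose-binding lectins were called higher and 1 lower, against 2.74% and 1.29% of all tested genes. This group was picked after its values were seen. In 2 of the 6 the higher call was repeated in the second background. Without single libraries the calls of PBP1 (adjusted p of 0.0589 and 0.0594), BGLU18 (0.0655 and 0.0755) and MBP1 (0.0754) were lost, and that of JAL23 was kept. The lectins include tandem copies whose reads could be split.

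Class III peroxidases use hydrogen peroxide in the cell wall. Of 50 tested genes with the product name peroxidase superfamily protein, 12 were called higher and 0 lower (24.0% called, against 4.03% of all genes), a group picked after its values were seen. In 5 of these the call was repeated in the second background. AT2G37130 was at 176 and 156 CPM in rrm1 and 116 and 114 CPM in Col-0 (log2 0.52, adjusted p = 0.0073), and its log2 difference was 0.51 in the second background (adjusted p = 0.0107). DOX1, a fatty acid dioxygenase under the same product name, was at 251 and 268 CPM in rrm1 and 170 and 175 CPM in Col-0 (log2 0.58, adjusted p = 0.000499; 0.39 in the second background). PRXCB, named apart in the annotation, was at 290 and 294 CPM in rrm1 and 214 and 213 CPM in Col-0 (log2 0.45, adjusted p = 0.00263; 0.56 in the second background). The call of AT2G37130 was lost without Col-0 replicate 3, Col-0 replicate 4 or rrm1 replicate 1 (adjusted p = 0.0625, 0.0686 and 0.0744), and those of DOX1 and PRXCB were kept. AT2G38380 and AT2G38390, neighbours that are 2 of the 12, lost their calls without any 1 of the 4 libraries (adjusted p of 0.0952 to 0.313 and of 0.092 to 0.207). Neighbouring peroxidases such as PRXCA and PRXCB are similar in sequence, so their separate values are uncertain.

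The lowest log2 difference among genes called in both backgrounds was that of AT1G04280 (chromosome 1, 1143436 to 1147091, minus strand), annotated as a P-loop nucleoside triphosphate hydrolase. It was at 8.43 and 8.77 CPM in rrm1, against 41.5 and 39.7 CPM in Col-0, 4.72-fold lower on means (log2 -2.11, SE 0.117, adjusted p = 5.39e-06). In pdp1/2/3;rrm1 it was at 9.34 and 9.07 CPM, against 36.6 and 49.3 CPM in pdp1/2/3 (log2 -2.09, adjusted p = 1.22e-05). The level in both mutants with rrm1 was the same to within 1 CPM, and the Col-0 libraries of the other table were at 35.1 and 34.8 CPM.

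Other genes called lower in both backgrounds were chosen for the size of their difference. AT1G65370, a TRAF-like protein, was at 3.09 and 3.44 CPM in rrm1 and 10.3 and 9.01 CPM in Col-0 (log2 -1.32; -1.53 in the second background, adjusted p = 0.000161). CID9, which carries a motif that binds poly(A)-binding protein, was at 3.35 and 3.13 CPM in rrm1 and 9.39 and 8.42 CPM in Col-0 (log2 -1.22; -1.08). AT1G07040, with no described role, was at 15.9 and 16.1 CPM in rrm1 and 38.1 and 34.6 CPM in Col-0 (log2 -1.13; -1.15). In these 3 genes the second background showed a difference of nearly the same size. AT4G32820, a tetratricopeptide repeat protein, was at 13.6 and 13.2 CPM in rrm1 and 31.1 and 31.8 CPM in Col-0 (log2 -1.17; -1.04). AT3G54760 was at 39.3 and 37.4 CPM in rrm1 and 78.2 and 74.0 CPM in Col-0 (log2 -0.97; -1.03). CRR7, a factor for the chloroplast NDH complex, was at 7.89 and 7.74 CPM in rrm1 and 15.8 and 16.2 CPM in Col-0 (log2 -0.95; -1.0). The calls of all 7 genes, AT1G04280 included, held without any 1 library. AT2G32870 and AT2G32880, neighbouring TRAF-like genes, were lower in both backgrounds too, with log2 differences of -0.70 and -0.55 against Col-0 and -0.48 and -0.29 against pdp1/2/3.

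Some named regulators fell by smaller amounts in both backgrounds. IAA14, an auxin repressor that controls lateral roots, was at 22.1 and 23.8 CPM in rrm1 and 38.6 and 38.9 CPM in Col-0 (log2 -0.73, adjusted p = 0.00052), and at 24.4 and 22.9 CPM in pdp1/2/3;rrm1 and 43.1 and 38.8 CPM in pdp1/2/3 (log2 -0.76). MYB29 and MYB28, which switch on aliphatic glucosinolate synthesis, fell by 0.76 and 0.39 against Col-0 and by 0.44 and 0.40 against pdp1/2/3. Of 22 glucosinolate genes 2 were lower and 1, MYB51, higher, and the list's median log2 difference was -0.17. MYB51, which controls indole glucosinolates, was at 12.1 and 13.7 CPM in rrm1 and 8.51 and 9.85 CPM in Col-0 (log2 0.45, adjusted p = 0.0348). It rose more in the second background, at 26.8 and 27.5 CPM in pdp1/2/3;rrm1 and 9.07 and 10.3 CPM in pdp1/2/3 (log2 1.40; interaction adjusted p = 0.0264, lost without 5 of 8 single libraries, with adjusted p up to 0.0859). CCA1, a morning component of the circadian clock, was the only 1 of 22 clock genes called, at 55.9 and 48.1 CPM in rrm1 and 74.0 and 70.2 CPM in Col-0 (log2 -0.47; -0.44 in the second background). The calls of MYB28, MYB51 and CCA1 were each lost without Col-0 replicate 3 (adjusted p = 0.134, 0.256 and 0.173) and without rrm1 replicate 2 (0.0809, 0.186 and 0.147). MYB51 was not called either when Col-0 replicate 4 (0.0757) or rrm1 replicate 1 (0.0786) was absent, nor CCA1 when Col-0 replicate 4 (0.099) was.

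Of 14 tested iron-deficiency genes 1 was called higher and 2 lower, with a median of 0.08, and the split did not hold. It was 3 higher and 0 lower without Col-0 replicate 3, 0 and 1 without rrm1 replicate 1, and 2 and 1 with libraries scaled to their own totals. All 3 calls were lost when Col-0 replicate 4 or rrm1 replicate 2 was left out, and with no filter or no trend. BTS, an E3 ligase that restrains the iron response, was at 117 and 106 CPM in rrm1 and 154 and 137 CPM in Col-0 (log2 -0.39, adjusted p = 0.0387; -0.75 in the second background, adjusted p = 0.00173). BHLH100, an iron-response factor, was at 8.61 and 5.58 CPM in rrm1 and 14 and 11.5 CPM in Col-0 (log2 -0.78, adjusted p = 0.0316). CYP82C4, which makes an iron-mobilising coumarin, was higher at 22.0 and 18.8 CPM against 12.2 and 5.26 CPM in Col-0 (log2 1.23, adjusted p = 0.037). BHLH100 and CYP82C4 were not called in the second background. Each of these calls was lost without at least 3 of the 4 single libraries (adjusted p up to 0.291, 0.23 and 0.259).

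Transcription factors that answer stress within minutes to hours were higher in rrm1 than in Col-0. Of 28 tested members of the list, 15 were called higher and 0 lower, against 2.74% of all genes called higher. All 28 had a positive log2 difference, with a median of 0.77, while the median over all tested genes was 0.01. In the second background 1 of the 28, SZF2, was called higher and the median was 0.14. The difference between backgrounds was called for 1 of the 28, ERF104. ERF104, an ethylene-response factor, was at 27.4 and 44.8 CPM in rrm1 and 6.61 and 10.3 CPM in Col-0 (log2 1.96, adjusted p = 0.00259). ERF104 was at 18.9 and 36.5 CPM in pdp1/2/3;rrm1 and 32.1 and 32.8 CPM in pdp1/2/3, and the difference between backgrounds was called (adjusted p = 0.0415) but lost without 4 of 8 single libraries (up to 0.15). WRKY40, an early defence regulator, was at 5.05 and 13.6 CPM in rrm1 and 0.816 and 2.54 CPM in Col-0 (log2 1.89, adjusted p = 0.0138). It was at 22.6 and 22.3 CPM in pdp1/2/3;rrm1 and 14.9 and 9.89 CPM in pdp1/2/3. ZAT10, a zinc-finger repressor, was at 13.7 and 19.9 CPM in rrm1 and 2.92 and 5.71 CPM in Col-0 (log2 1.77, adjusted p = 0.00252). SZF1, a stress-induced zinc-finger protein, was at 37.9 and 83.9 CPM in rrm1 and 14.7 and 19.5 CPM in Col-0 (log2 1.68, adjusted p = 0.0073).

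The level of these stress factors varied between replicates and was lowest in Col-0. Their summed level was 510 and 780 CPM in rrm1, 300 and 348 CPM in Col-0, 966 and 1215 CPM in pdp1/2/3;rrm1, and 1143 and 975 CPM in pdp1/2/3. In the Col-0 pair of the other table, normalised apart, it was 228 and 239 CPM. Within rrm1, replicate 2 was above replicate 1 for 26 of the 28 genes. The list had 5 calls with no filter on low values and 5 with no mean-variance trend. In these 2 fits WRKY40 (adjusted limma p of 0.0983 and 0.0689) and SZF1 (0.0762 and 0.0504) were not called. Without Col-0 replicate 3 the list had 4 calls, without rrm1 replicate 2 it had 6, and without Col-0 replicate 4 it had 11. The calls of ERF104 and ZAT10 held without any 1 library, WRKY40 lost its call without Col-0 replicate 3 (adjusted p = 0.131) or rrm1 replicate 2 (0.0828), and SZF1 lost it without Col-0 replicate 3 (0.0808). The part that growth, handling or harvest of single library pairs has in these levels was not tested.

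Some genes tied to touch and calcium were higher in rrm1 too. Of 12 tested members 4 were called higher (CAF1a, CML24, CML12 and CAF1b) and 0 lower, against 2.74% of all genes called higher. Limma called 0 in the second background, where 1 had an unadjusted p below 0.05. CAF1a (AT3G44260, chromosome 3, 15952008 to 15953346), a deadenylase that shortens mRNA tails and is induced by stress, was at 32.7 and 48.4 CPM in rrm1 and 5.68 and 11.5 CPM in Col-0 (log2 2.16, adjusted p = 0.00128). It was at 15.1 and 21.3 CPM in pdp1/2/3;rrm1 and 25.7 and 18.0 CPM in pdp1/2/3 (log2 -0.25), and the difference between backgrounds was called (adjusted p = 0.0264). That call was lost without Col-0 replicate 3 (0.0786), rrm1 replicate 2 (0.0897) or pdp1/2/3;rrm1 replicate 1 (0.0919). CML24, a touch-induced calmodulin-like protein, was at 29.3 and 40.1 CPM in rrm1 and 14.5 and 16.0 CPM in Col-0 (log2 1.12, adjusted p = 0.0103). CML24 stood higher still, at 60.8 and 87.9 CPM in pdp1/2/3;rrm1 and 96.2 and 62.5 CPM in pdp1/2/3. TCH4, a touch-induced wall enzyme of the cell wall list, was not called, at 23.9 and 61.8 CPM in rrm1 and 15.2 and 18.6 CPM in Col-0. The touch and calcium list had 1 call with no filter on low values and 1 with no mean-variance trend. The list had 1 call without Col-0 replicate 3 or without rrm1 replicate 2, and 2 without Col-0 replicate 4; CAF1a kept its call in each, while CML24 (adjusted p of 0.056 to 0.0936) and CML12 (0.102 to 0.181) lost it. CAF1b lost its call without Col-0 replicate 3 (0.257), rrm1 replicate 1 (0.0655) or rrm1 replicate 2 (0.191).

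Several genes with log2 differences among the highest against Col-0 were not called in the second background either. DIC2, a mitochondrial dicarboxylate carrier, was at 19.1 and 47.4 CPM in rrm1 and 3.12 and 6.19 CPM in Col-0 (log2 2.52, adjusted p = 0.00417), and at 52.9 and 76.1 CPM in pdp1/2/3;rrm1 and 59.7 and 31.9 CPM in pdp1/2/3. AT1G07135, a glycine-rich protein, had a log2 difference of 2.22 against Col-0 (adjusted p = 0.00295) and of 0.40 in the second background (adjusted p = 0.596). AT4G27280, a calcium-binding EF-hand protein, had 2.12 against Col-0 (adjusted p = 0.0078) and -0.61 in the second background. BT5, a BTB-TAZ protein, was at 13.5 and 17.9 CPM in rrm1 and 3.28 and 4.08 CPM in Col-0 (log2 1.83, adjusted p = 0.000553), and was not called in the second background. AT2G43620, a chitinase-family protein, was at 9.36 and 14.5 CPM in rrm1 and 2.52 and 1.43 CPM in Col-0 (log2 2.12, adjusted p = 0.000287; 0.67 in the second background, adjusted p = 0.123). BAM5, a beta-amylase and the only 1 of 14 starch breakdown genes called, had similar differences in both backgrounds, 1.91 (adjusted p = 0.0313) and 1.69 (adjusted p = 0.0626). BAM5 was at 70.2 and 41.5 CPM in rrm1 and 23.9 and 7.66 CPM in Col-0, and its call was lost without Col-0 replicate 4 (adjusted p = 0.236), rrm1 replicate 1 (0.243) or rrm1 replicate 2 (0.0572). AT4G27280 was not called once Col-0 replicate 3 (0.0877) or rrm1 replicate 2 (0.071) was left out. With no filter on low values DIC2 was not called (0.0605).

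TEM1, TEM2 and RAV1 are of the RAV family that represses FT and other growth genes. They were the 3 called higher among 11 RAV and AP2-type repressors of flowering, with 0 lower, against 2.74% of all genes called higher. The median log2 difference of the 11 was 0.12, and 6 were positive. In the second background 0 of the 11 were called. TEM1 was at 52.1 and 75.8 CPM in rrm1 and 15.2 and 20.5 CPM in Col-0 (log2 1.77, adjusted p = 0.00015). In the second background TEM1 was at 68.5 and 81.6 CPM in pdp1/2/3;rrm1 and 69.2 and 70.8 CPM in pdp1/2/3, and the difference between backgrounds was called (adjusted p = 0.018). TEM2 was at 108 and 143 CPM in rrm1 and 30.6 and 49.8 CPM in Col-0 (log2 1.64), against a log2 difference of -0.02 in the second background (interaction adjusted p = 0.0264). Without Col-0 replicate 3 neither interaction was called (0.0786 for both), and that of TEM2 was also lost without 3 other libraries (up to 0.0802). The Col-0 pair of the other table stood at 17.7 and 19.2 CPM for TEM1. So TEM1 was low in both Col-0 pairs and higher in each of the mutant groups of this table.

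**Figure D4:**
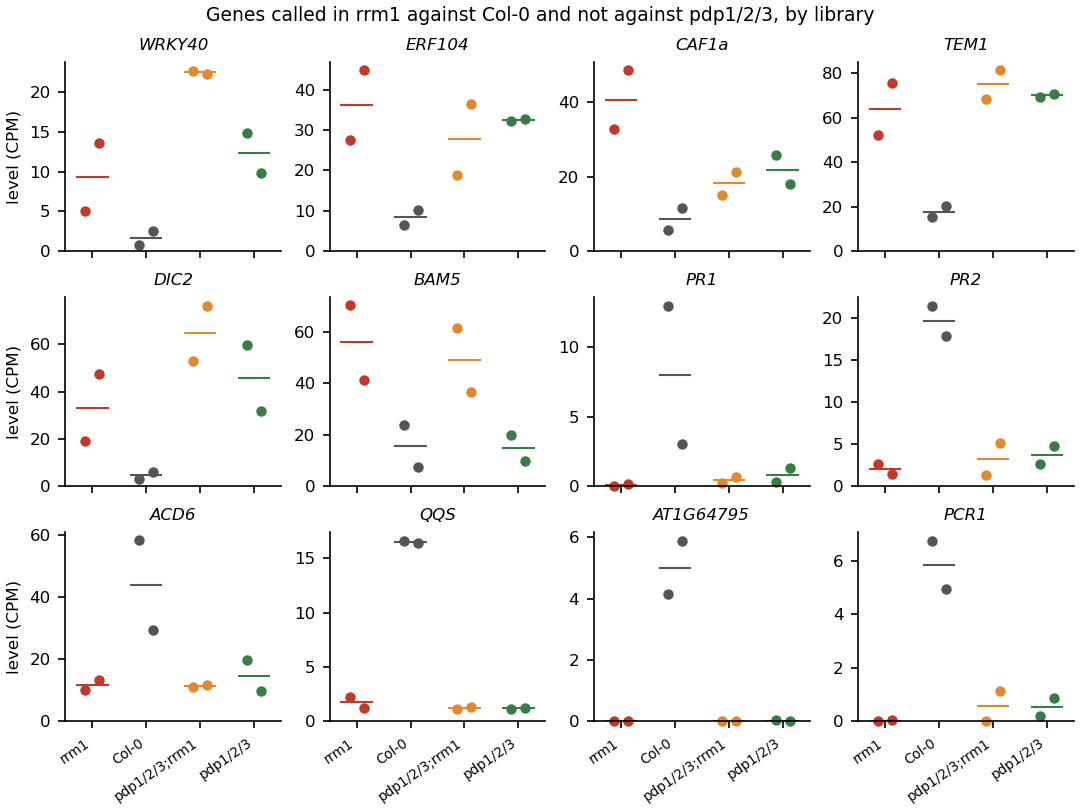
Levels (CPM, y axis from 0, scale set per gene) of 12 genes called in rrm1 against Col-0 and not in pdp1/2/3;rrm1 against pdp1/2/3. Points are libraries and lines group means (n = 2), in the order rrm1, Col-0, pdp1/2/3;rrm1 and pdp1/2/3. WRKY40 to DIC2 are lowest in Col-0 and PR1 to PCR1 highest in Col-0, while BAM5 is higher in each group with rrm1 than in its counterpart.

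Of 20 tested genes of the salicylic acid and immune response 7 were called lower in rrm1 than in Col-0 (PR1, PR2, PCC1, LURP1, ACD6, SARD1 and NUDT6) and 0 higher, against 1.29% of all genes called lower, and the median log2 difference was -0.29. The other 13 were not called, and the 7 calls were 3 with no filter on low values and 4 with a filter of 5 CPM. In the second background PCC1 alone was called lower and the median was -0.07. PR2, a secreted beta-1,3-glucanase, was at 2.61 and 1.43 CPM in rrm1 and 21.4 and 17.8 CPM in Col-0 (log2 -2.79, adjusted p = 0.0015). It was at 1.35 and 5.16 CPM in pdp1/2/3;rrm1, 2.68 and 4.82 CPM in pdp1/2/3, and 2.39 and 1.03 CPM in the other Col-0 pair. PR1, the classic marker of salicylic acid response, was at 0.0489 and 0.154 CPM in rrm1 and 13 and 3.04 CPM in Col-0 (log2 -2.77, adjusted p = 0.00577). ACD6, an ankyrin protein that promotes defence, was at 10.2 and 13.4 CPM in rrm1 and 58.5 and 29.5 CPM in Col-0 (log2 -1.74, adjusted p = 0.00793). PCC1, a pathogen-induced gene, was at 2.65 and 2.72 CPM in rrm1 and 12.9 and 15.3 CPM in Col-0 (log2 -2.03, adjusted p = 3.05e-05), and at 1.5 and 2.03 CPM in pdp1/2/3;rrm1 and 4.82 and 3.89 CPM in pdp1/2/3 (log2 -0.95, adjusted p = 0.00568).

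EDS1, PAD4, ICS1, NPR1 and WRKY70, regulators of this response, were not called. EDS1 and PAD4, which pair in immune signalling, had log2 differences of -0.22 and -0.18, and ICS1, which makes salicylic acid, had -0.23 (adjusted p = 0.145, 0.262 and 0.315). The receptor NPR1 had -0.11 and the regulator WRKY70 -0.10, whose sign turned without Col-0 replicate 3 (0.10) or rrm1 replicate 1 (0.39). SARD1, an activator of ICS1, was lower at 1.1 and 0.871 CPM against 2.56 and 4.28 CPM in Col-0 (log2 -1.13, adjusted p = 0.00981). The summed level of the list was 173 and 190 CPM in rrm1, 304 and 260 CPM in Col-0, 218 and 226 CPM in pdp1/2/3;rrm1, and 239 and 211 CPM in pdp1/2/3. In the other Col-0 pair, normalised apart, it was 160 and 134 CPM, below every library of this table. The calls of PR1, PR2, LURP1 and PCC1 held without any 1 library, but those of PR1 and LURP1 were lost with no filter on low values (adjusted p = 0.0632 and 0.0616). ACD6 was not called once Col-0 replicate 3 (0.077) or rrm1 replicate 1 (0.0716) was left out, nor SARD1 once Col-0 replicate 4 (0.102) or rrm1 replicate 2 (0.0729) was. NUDT6 was called in none of the 4 fits that each left out an rrm1 or Col-0 library (0.0612 to 0.153).

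Other genes were high in this Col-0 pair and low in all 6 mutant libraries. QQS (AT3G30720, chromosome 3, 12349047 to 12349933), an Arabidopsis-specific gene that affects starch and is known to vary with its DNA methylation, was at 2.26 and 1.23 CPM in rrm1 and 16.6 and 16.4 CPM in Col-0 (log2 -2.70, SE 0.17, adjusted p = 1.57e-05). It was at 1.12 and 1.3 CPM in pdp1/2/3;rrm1 and 1.15 and 1.24 CPM in pdp1/2/3, and the difference between backgrounds was called (adjusted p = 0.00215). The other Col-0 pair had 10.7 and 5.30 CPM of QQS. AT1G64795 (chromosome 1, 24082579 to 24082848), an uncharacterised gene with another on the opposite strand, was at 0 CPM in both rrm1 libraries and 4.15 and 5.87 CPM in Col-0, at least 32.1-fold lower on means (floor of 3 counts per library; log2 -2.57, adjusted p = 3.05e-05). It was at 0 in pdp1/2/3;rrm1, 0.0523 and 0 CPM in pdp1/2/3, and 9.86 and 7.97 CPM in the other Col-0 pair. QQS and AT1G64795 were thus expressed in both Col-0 pairs and low in every rrm1 and pdp1/2/3 library.

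PCR1 and AIG1 differed between the Col-0 pairs. PCR1, a metal transporter of the plasma membrane, was at 0 and 0.0514 CPM in rrm1 and 6.73 and 4.93 CPM in Col-0 (log2 -2.72, adjusted p = 0.000706), and at 0.184 and 0 CPM in the other Col-0 pair. AIG1, a pathogen-induced GTP-binding protein, was at 0.804 and 0.255 CPM in rrm1 and 5.44 and 5.51 CPM in Col-0 (log2 -2.11, adjusted p = 0.0018), and at 0.505 and 0.282 CPM in the other pair. Receptor-type genes were lower as well. WAK1, a wall-associated kinase, was at 12.3 and 15.0 CPM in rrm1 and 41.2 and 28 CPM in Col-0 (log2 -1.26, adjusted p = 0.00191). RLP41, a receptor-like protein, was at 2.34 and 2.87 CPM in rrm1 and 11.0 and 8.74 CPM in Col-0 (log2 -1.59, adjusted p = 0.000387). For WAK1 the other Col-0 pair stood at 14.5 and 9.94 CPM and for RLP41 at 3.58 and 3.14 CPM, near the mutants. None of these 4 genes was called in the second background, and their calls against Col-0 held without any 1 library.

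**Figure D5:**
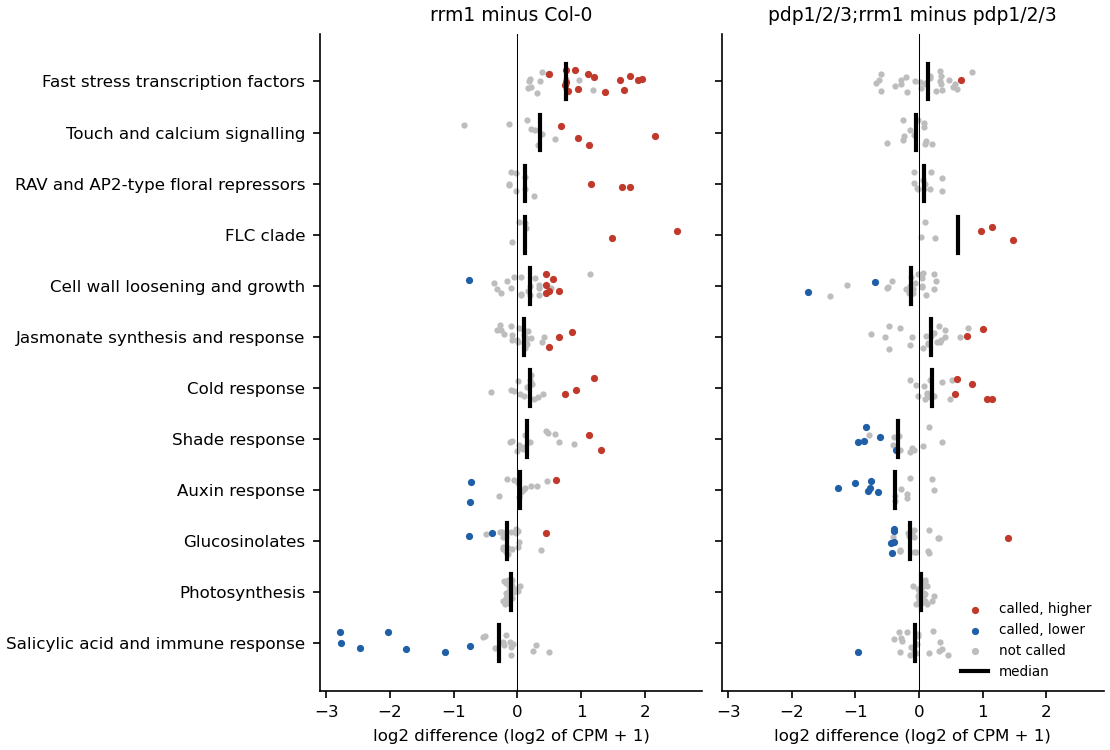
Log2 differences (x axis, log2 of CPM plus 1) of the tested members of 12 gene lists, for rrm1 minus Col-0 on the left and pdp1/2/3;rrm1 minus pdp1/2/3 on the right. Red points were called higher, blue points lower and grey points not called, and the black bar is the list's median. The fast stress factors have 15 red points on the left and 1 on the right, and the salicylic acid list 7 blue points on the left and 1 on the right.

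Cold genes rose in both backgrounds in part. Of 18 tested members 3 were higher in rrm1 than in Col-0 and 5 in the second background. Over all tested genes the shares called higher were 2.74% and 1.43%. CBF2, a master regulator of cold acclimation, was at 6.08 and 8.47 CPM in rrm1 and 2.31 and 2.81 CPM in Col-0 (log2 1.21, adjusted p = 0.00315; 0.82 in the second background, adjusted p = 0.0272). CBF1, its tandem copy, was at 1.34 and 2.26 CPM in rrm1 and 0.307 and 0.634 CPM in Col-0 (log2 0.92, adjusted p = 0.0229; 1.15 in the second background). CBF3 was not called against Col-0 (log2 0.23, adjusted p = 0.618). COR413-IM1, a chloroplast membrane protein of the cold response, was at 110 and 130 CPM in rrm1 and 65.7 and 76.7 CPM in Col-0 (log2 0.75, adjusted p = 0.00316). CBF1 lost its call without Col-0 replicate 3 (0.186), Col-0 replicate 4 (0.0576) or rrm1 replicate 2 (0.157).

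Growth genes moved in both directions. Of 25 tested genes of wall loosening 6 were higher and 1 was lower, against 2.74% and 1.29% of all tested genes. Of the 6, 5 were XTH enzymes that cut and rejoin xyloglucan. In the second background 0 were higher and 2 lower, with a median of -0.13. XTH24 was at 89.6 and 74.5 CPM in rrm1 and 50.1 and 53.0 CPM in Col-0 (log2 0.66, adjusted p = 0.0058). EXPA1, an expansin of leaves and guard cells, fell to 319 and 268 CPM in rrm1, against 464 and 530 CPM in Col-0 (log2 -0.76, adjusted p = 0.00935). Without Col-0 replicate 3 or 4 the list had 1 call, and XTH24 lost its call without Col-0 replicate 3 (adjusted p = 0.0661) or rrm1 replicate 1 (0.0552), EXPA1 without Col-0 replicate 4 (0.0951) or rrm1 replicate 2 (0.0824). Of 16 shade genes ATHB2 and YUC9 were higher against Col-0, while 5 were lower in the second background. Over all tested genes 1.53% were called lower there. ATHB2, a homeodomain factor of shade avoidance, was at 52.6 and 75.2 CPM in rrm1 and 21.9 and 27.9 CPM in Col-0 (log2 1.31, adjusted p = 0.00106). ATHB2 was at 183 and 233 CPM in pdp1/2/3;rrm1 and 242 and 269 CPM in pdp1/2/3, and the difference between backgrounds was called (adjusted p = 0.018), but not without Col-0 replicate 3 (0.0786) or rrm1 replicate 2 (0.0523). YUC9, an auxin synthesis enzyme, was at 5.22 and 8.52 CPM in rrm1 and 2.77 and 2.28 CPM in Col-0 (log2 1.13, adjusted p = 0.00365). Of 14 auxin genes IAA2 was higher (log2 0.60) and IAA14 and IAA5 lower, and 6 were lower in the second background. IAA2 lost its call without Col-0 replicate 3 (0.0532), and IAA5 without Col-0 replicate 3 (0.117), Col-0 replicate 4 (0.196) or rrm1 replicate 2 (0.169).

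Of 23 tested jasmonate genes 3 were called higher and 0 lower, against 2.74% of all genes called higher, with a median of 0.11. In the second background 2 were called higher and 0 lower, with a median of 0.18. At an unadjusted limma p below 0.05 there were 5 against Col-0 and 11 in the second background. The 3 called against Col-0 were AOC3, of jasmonate synthesis, CYP94B3, which inactivates the hormone, and VSP1, a storage protein that it induces (log2 0.49, 0.65 and 0.85). Each of these calls was lost without at least 3 single libraries (adjusted p up to 0.137, 0.223 and 0.298). Of 13 flavonoid genes CHI and LDOX were higher (log2 0.60 and 0.74), and of 15 nitrate genes BT5 and BT2. BT2 lost its call without Col-0 replicate 3 (0.215), Col-0 replicate 4 (0.161) or rrm1 replicate 2 (0.0918). HSP18.2, a small heat shock protein, was the 1 of 8 tested heat genes that was called, at 7.64 CPM in both rrm1 libraries and 4.46 and 4.4 CPM in Col-0 (log2 0.67; 0.83 in the second background). Calls of CHI, LDOX and HSP18.2 were lost without any 1 of the 4 libraries (adjusted p of 0.0823 to 0.281).

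The machinery of DNA methylation and chromatin was nearly level. Of 21 tested genes of RNA-directed DNA methylation, SUVH9, which binds methylated DNA, was called lower, at 42.4 and 41.7 CPM in rrm1 and 52.0 and 51.1 CPM in Col-0 (log2 -0.29, adjusted p = 0.0389). That call was lost when libraries were scaled to their own totals (0.0696) and without any 1 of the 4 libraries (0.159 to 0.237). Its partner SUVH2 was at 11.2 and 10.9 CPM in rrm1 and 11.0 and 11.5 CPM in Col-0 (log2 -0.02, adjusted p = 0.931), and FVE was at 49.7 and 47.1 CPM in rrm1 and 46.2 and 50.0 CPM in Col-0 (log2 0.01, adjusted p = 0.964). The signs of both are not settled, since they flipped with other scalings or without single libraries. ROS1, a DNA demethylase, was at 55.3 and 55.7 CPM in rrm1 and 47.3 and 49.1 CPM in Col-0 and was not called (adjusted p = 0.197). SDC and FWA, which DNA methylation silences, did not pass the filter: SDC was at 0.0996 and 0.103 CPM in rrm1 and 0 in Col-0, and FWA at 0 in all 4. Limma called 0 of 13 genes of methylation upkeep and removal, 0 of 9 of the autonomous pathway and 0 of 11 Polycomb genes, with medians of 0.00, -0.09 and -0.06. At an unadjusted p below 0.05 there were 2, 1 and 1. Of 16 genes for splicing proteins and glycine-rich RNA-binding proteins 1 was called, RS40 (log2 -0.34), and its call was lost without Col-0 replicate 4, rrm1 replicate 1 or rrm1 replicate 2 (0.269, 0.144 and 0.115).

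Of the tissue markers, those of seed and flower are given above, and those of green tissue and root follow. Limma called 0 of 29 photosynthesis genes (2 at an unadjusted p below 0.05), but 27 of 29 had a negative log2 difference, with a median of -0.11, and their summed level was 133000 and 139000 CPM in rrm1 and 142200 and 150400 CPM in Col-0. Of 17 root genes EXPA7, an expansin of root hairs, was called higher (log2 0.67, adjusted p = 0.0136). Leaving out Col-0 replicate 4 (0.136) or rrm1 replicate 1 (0.128) ended the call. The root list summed to 281 and 278 CPM in rrm1 and 243 and 247 CPM in Col-0, with a median of 0.16. Their part in the results above was not tested. Limma called 0 of 11 cell division, 10 abscisic acid and 7 reference genes, with medians of 0.10, -0.02 and -0.06. At an unadjusted p below 0.05 there were 1, 3 and 0.

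The difference between the backgrounds itself was called for 58 genes (0.301% of those tested), 43 with a more positive log2 difference against Col-0 than against pdp1/2/3 (0.223%) and 15 with a more negative one (0.078%). Of these, 36 were called in rrm1 against Col-0 and 28 in pdp1/2/3;rrm1 against pdp1/2/3. This count rested on single libraries and settings. It was 2 with no filter on low values, 3 with no trend, 5 without Col-0 replicate 3, 9 without rrm1 replicate 2 and 344 without pdp1/2/3 replicate 1. Of 22 named genes with this call, QQS, BEE3, AT1G35710 and AT1G64795 kept it in every fit without 1 library that they entered, and the other 18 lost it in at least 1. AT1G64795 passed the filter on low values through the Col-0 libraries alone. It entered 6 of the 8 fits, and could not lose its call when a Col-0 library was left out. BEE3, a growth-promoting bHLH factor, was 1 of the 4 genes called in opposite directions. It was at 26.2 and 28.4 CPM in rrm1 and 17.3 and 18.5 CPM in Col-0 (log2 0.58, adjusted p = 0.00377), and at 32.9 and 38.0 CPM in pdp1/2/3;rrm1 and 51.2 and 52.7 CPM in pdp1/2/3 (log2 -0.54, adjusted p = 0.00713). Its interaction had an adjusted p of 0.00481. IAA3, an auxin repressor, was at 12.3 and 12.8 CPM in rrm1 and 12.2 and 12 CPM in Col-0, with a log2 difference of 0.05, and fell in the second background, at 17.1 and 21.4 CPM in pdp1/2/3;rrm1 and 40.6 and 38.3 CPM in pdp1/2/3 (log2 -1.01; interaction adjusted p = 0.018, lost without 3 of 8 single libraries, with adjusted p up to 0.0786). The call of BEE3 against Col-0 was lost without Col-0 replicate 3 (adjusted p = 0.0528).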

How the data were processed

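RNA-seq of whole seedlings was deposited by the authors as 1 table per experiment. The submitters' processing notes name HISAT2, featureCounts, edgeR and TAIR10, but give no roles. The deposited values are a signal, counts adjusted by the authors to a common library size (not whole reads, and whole reads could not be recovered), so no count test was run. Levels are these values divided by the geometric mean of the table totals (19220337), times 1e+06 (CPM). Genes with at least 1 CPM in 2 or more of 8 libraries were kept. Log2(level + 1) was fitted for all 8 libraries with limma 3.58.1 (R 4.3.3), using a mean-variance trend (4 residual and 7.82 prior degrees of freedom), and Benjamini-Hochberg adjusted two-sided p-values below 0.05 were called. A fold on this scale understates changes of low genes. The fit was tested on data simulated with the spread of these libraries: the share of false calls averaged somewhat above the threshold with the trend and below it without, so calls with an adjusted p near 0.05 are the less certain. Genes named are the 12 highest and 12 lowest called with a mean of at least 5 CPM, up to 4 called per list, and 3 each way by interaction. A further 93 of 168 were added after their values were seen. Members and lists were chosen with earlier results of these data known. Promoter windows were read from RefSeq TAIR10.1, matched by locus.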

Additional observations from a re-analysis of the deposited data

Results flagged for a closer look

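The effect of rrm1 differed between the backgrounds, by the limma interaction with adjusted p below 0.05, for 22 of the named genes. Each value is the log2 difference of rrm1 minus Col-0 less that of pdp1/2/3;rrm1 minus pdp1/2/3, and no explanation was tested. The calls of QQS, BEE3, AT1G35710 and AT1G64795 were kept in every fit without 1 library that they entered, and those of the other 18 were lost in at least 1. AT1G64795 entered 6 of the 8 fits, since it did not pass the filter on low values when a Col-0 library was left out. Genes higher in rrm1 than in Col-0 with a positive value were CAF1a (2.41), ERF104 (2.25), AT3G50800 (2.19), TEM1 (1.68), TEM2 (1.67), ATHB2 (1.62), MAF5 (1.35), BEE3 (1.12) and IAA2 (0.791). Genes lower in rrm1 than in Col-0 with a negative value were QQS (-2.71), PCR1 (-2.68), AT1G64795 (-2.54), AIG1 (-2.2), AT5G10760 (-1.91), AT1G35710 (-1.67), AT3G28540 (-1.5), RLP41 (-1.46) and WAK1 (-1.35). MYB51 had a value of -0.948, being called higher in both backgrounds and by more against pdp1/2/3. Genes not called against Col-0 and lower in pdp1/2/3;rrm1 than in pdp1/2/3 were IAA3 (1.06), AT5G44680 (0.784) and SHM7 (0.661).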

How the results depend on the processing

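The count of 775 genes called in rrm1 against Col-0 was 270 with no filter on low values, 419 with no mean-variance trend and 1746 when only the 4 libraries compared were fitted. The 570 genes called in the second background were 173 with no filter, 213 with no trend and 369 with only the groups compared. The 183 shared calls were 73 with no filter and 96 with no trend. The 58 calls of the difference between backgrounds were 2 with no filter, 3 with no trend, 33 with a filter of 5 CPM and 129 with libraries scaled to their own totals. Leaving out 1 library at a time gave 204 to 1234 calls against Col-0, 182 to 508 in the second background, 83 to 198 shared and 5 to 344 for the difference between backgrounds. A lone library left in a group is assumed to vary like the others. The cause was not tested. In the counts of kept calls that follow, a gene that a run did not test counts as keeping its call. With a filter of 5 CPM 114 of the 133 genes were tested, and 132 when either Col-0 replicate was left out. Of 133 named genes called against Col-0, 65 kept their call without any 1 library and 61 under every alternative run.

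Among genes that were not called, signs turned. Scaled to own totals, SUVH2 was at 0.011 and SVP at 0.0147, and with median-of-ratios scaling FVE was at -0.00351. Without 1 library at a time, log2 differences ranged from -0.0464 to 0.0644 for FVE, -0.0549 to 0.0118 for SUVH2, -0.0581 to 0.0175 for SVP, -0.596 to 0.395 for WRKY70 and -0.189 to 0.027 for AT5G44680.

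No paired analysis was possible because rrm1 and Col-0 share no replicate numbers. For the mutants, differences between replicates 1 and 2 correlated at -0.04, -0.10 and -0.01 between groups, so the numbers do not pair the libraries; with the replicate block 435 genes were called in the second background, and 435 without the block in the same 6 libraries, a fit chosen after seeing the data.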
